A study of Mus musculus with 78 samples.

Results

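The 10 genes described here mark the primitive endoderm of the mouse blastocyst or carry the FGF signal that induces it: Gata6, Gata4, Sox17, Sox7, Fgf4, Fgfr1, Fgfr2, Pdgfra, Grb2 and Dab2. They were picked by name, as the rows of the 4-cell and 8-cell gene tables whose Entrez number is that of the gene. Of the 10 genes, 8 were listed in both tables, which hold 15218 genes at the 4-cell stage and 15342 at the 8-cell stage. Sox17 and Sox7, HMG-box transcription factors of the primitive endoderm, were listed in neither table, and no level is given for them here. The data are single-cell RNA-seq libraries of blastomeres from rainbow embryos, in which a lineage marker is switched on at the 2-cell stage. Every embryo of both stages had one copy of Brainbow2.1 at Gt(ROSA)26Sor and one copy of CAG-cre/Esr1*, a ubiquitously driven, hormone-dependent Cre, and all were exposed to 4-hydroxytamoxifen for 2 h as 2-cell embryos and then grown in KSOM medium. No embryo without the Cre, without the agent or developed in the mother was part of these tables, so what culture and treatment add to a level cannot be told apart from the stage. The labels give 36 blastomeres of 9 embryos for the 4-cell stage and 31 of 4 embryos for the 8-cell stage, and the 11 blastomeres of a 5-cell and a 6-cell embryo were not analysed here.

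The gene tables hold 24 and 26 blastomeres, which are also the numbers of 4-cell and 8-cell blastomeres with a lineage in the labels. The study kept to 50 blastomeres of known lineage in its analyses and could not resolve 3 of its 4-cell embryos. The 24 4-cell blastomeres thus need not come from all 9 embryos. None of the column names of the gene tables points to a single embryo or lineage. Each stage was therefore 1 sample without replicates, blastomeres did not count as replicates, and each gene is described by its lowest, median and highest blastomere, with no test. Stage, embryo and table cannot be told apart. Levels are FPKM, fragments scaled to gene length and to library depth, so that genes of different length can be set side by side. The fragments behind the FPKM values were estimated at 6860000 to 16900000 per 4-cell blastomere (median 13400000) and at 2330000 to 21700000 per 8-cell blastomere (median 17200000). Genes above an FPKM of 1 numbered 3009 to 8276 in 4-cell and 3548 to 8078 in 8-cell blastomeres, and 3 blastomeres, 2 of them at the 4-cell stage, had fewer than 4000. Of 10 genes of the oocyte and early embryo 9 were listed, and 6 and 4 of them in turn exceeded an FPKM of 1 in 50% or more of the blastomeres, as did 45.2% and 41.2% of all listed genes. Dppa3, a maternal-effect gene, had the highest medians of this list, 3658 and 3260 FPKM, while Zar1, another maternal-effect gene, had a median of 0 in both tables. Of 10 markers of cumulus and granulosa cells 4 and 3 were listed, and their summed FPKM had a median of 0 at both stages with highest values of 3.06 and 9.51.

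Primitive endoderm is the extraembryonic layer that lines the inner cell mass of the blastocyst and later forms much of the yolk sac. It arises when inner cells respond to FGF4 from neighbouring epiblast precursors through FGF receptors, the adaptor GRB2 and the ERK kinase cascade, which sustains GATA6 and lowers NANOG. GATA6 is followed by SOX17, GATA4 and SOX7, while PDGFRA and the endocytic adaptor DAB2 are used as markers of the layer.

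Of these genes, 8 were detected in blastomeres of cleavage-stage embryos, well before primitive endoderm forms. At the 4-cell stage, 5 of the 10 genes were on, which here means that 12 or more of the 24 blastomeres exceeded an FPKM of 1: Gata6, Gata4, Fgf4, Fgfr2 and Grb2. Of all listed genes, 45.2% were on at that stage. At the 8-cell stage, 6 of the 10 were on in this sense, with 13 or more of the 26 blastomeres, against 41.2% of all listed genes: Gata6, Gata4, Fgfr1, Fgfr2, Grb2 and Dab2. The shares are of listed genes, and both counts come from the 8 of the 10 that were listed. With so few genes, neither count is read as an excess over the share of all listed genes. Four-cell blastomeres had a median of 5 of the 8 listed genes above 1, with a lowest of 2 and a highest of 7. The 8-cell blastomeres had the same median, lowest and highest numbers. The number of these genes on was thus alike at both stages, and its make-up differed in Fgf4, Fgfr1 and Dab2. Where a value was 0, the limit that 3 fragments set was an FPKM of 0.0207 to 0.15 for these genes at the 4-cell stage and of 0.016 to 0.441 at the 8-cell stage. These limits cover counting error only, since reads were not tagged by molecule and RNA lost before amplification is not counted.

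**Figure D1:**
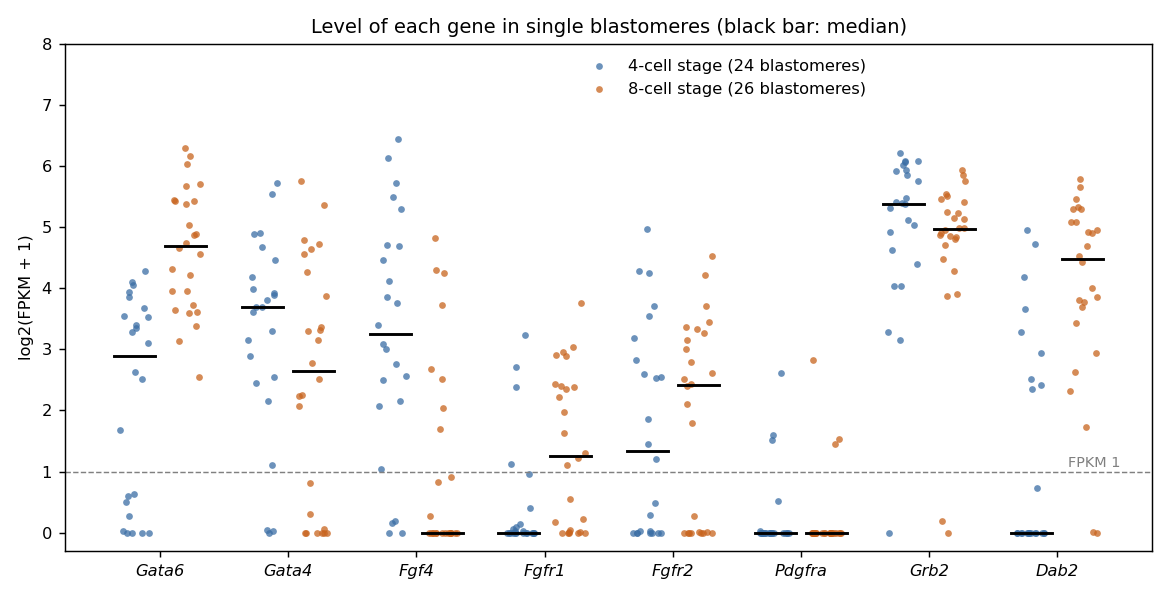
Each point is 1 blastomere, with log2(FPKM + 1) on the vertical axis, the 8 listed genes along the horizontal axis, 4-cell blastomeres in blue (24) and 8-cell blastomeres in orange (26), the black bar at the median FPKM and the dashed line at an FPKM of 1. All 26 8-cell blastomeres were above the line for Gata6, against 15 of 24 at the 4-cell stage, while Fgf4 had 20 of 24 above the line at the 4-cell stage and 8 of 26 at the 8-cell stage.

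Gata6, a zinc-finger transcription factor needed to form the primitive endoderm, was the only one of the 8 genes above an FPKM of 1 in every blastomere of a stage. At the 4-cell stage its FPKM had a lowest value of 0, a median of 6.40 and a highest of 18.4. It was above 1 in 15 of 24 blastomeres, or 62.5% (exact binomial 95% interval over blastomeres 40.6% to 81.2%), at 0 in 4, and between 0 and 1 in 5. At the 8-cell stage the lowest value was 4.82, the median 24.98 and the highest 77.8. The 4-cell blastomeres fell into a set without or nearly without Gata6 and a set whose lowest value was 2.19, and the 8-cell blastomeres had no member of the first. Of the 26 8-cell blastomeres, 16 lay above the highest 4-cell value, and the others overlapped the 4-cell range. Mean log2(FPKM + 1) was 2.21 in the earlier and 4.63 in the later table, a difference of 2.42 that exceeded those of 99.8% of the 13604 genes listed in both tables. The gene lies at chr18:11052510-11085636 (GRCm38.p6), and its exons overlap those of Gata6os, an antisense transcript. The library kit does not mark strand, so reads of the overlap cannot be told apart. Gata6os had a median FPKM of 0 at the 4-cell stage and of 2.44 at the 8-cell stage, was above 1 in 7 of 24 and 13 of 26 blastomeres, and was at 0 in 9 of the 26 8-cell blastomeres, all of which had Gata6 above 1.

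The 9 4-cell blastomeres with Gata6 at or below 1 are described beside the other 15, with no test, since Gata6 itself chose them. Gata4 was above 1 in 8 of these 9 and in 13 of the other 15, with medians of 24.5 and 7.91 FPKM. Fgf4 was above 1 in 8 of the 9 and in 12 of the 15, with medians of 38.5 and 4.92 FPKM. For both genes the shares of blastomeres were thus alike and the medians were higher in the 9. Dab2 was above 1 in 1 of the 9 and 8 of the 15, Pdgfra in none of the 9 and 3 of the 15, and Grb2 in 8 of the 9 and all 15. Nanog, the homeobox factor of the epiblast, was above 1 in 4 of the 9 and 14 of the 15, with medians of 0.113 and 46.7 FPKM. These blastomeres had 3009 to 7912 genes above 1 against 6675 to 8276 in the other 15, and 5 of the 9 had fewer than every one of the 15. Of the 9, 8 stood in neighbouring columns of the table. The column names do not say whether neighbouring columns hold blastomeres of the same embryo, and the part of embryo and library in this was not tested.

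Gata4, the zinc-finger factor that acts after Gata6 in the primitive endoderm, was on at both stages and was more widespread at the earlier one. At the 4-cell stage its FPKM was 0 at the lowest, 11.9 at the median and 51.7 at the highest. It was above 1 in 21 of 24 blastomeres (87.5%, interval 67.6% to 97.3%). At the 8-cell stage the lowest value was 0, the median 5.28 and the highest 52.9, with 17 of 26 blastomeres above 1 (65.4%, interval 44.3% to 82.8%) and 6 at 0. The ranges overlapped nearly in full, with a single 8-cell blastomere above every 4-cell value. The difference in mean log2(FPKM + 1), 8-cell minus 4-cell, was -0.81, which is under the difference of 1 that was set as a size to count. The value depended on the scale: it was -1.37 with a pseudocount of 0.1 and -1.04 with medians in place of means. The gene lies at chr14:63198914-63271712, and the exons of no other gene overlap its own. Of 7 trophectoderm markers, 5 were listed in both tables. Their summed FPKM was 22.1 to 133 among 4-cell and 44.2 to 394 among 8-cell blastomeres, and its Spearman's rho with Gata4 was 0.30 over the 24 and 0.58 over the 26 blastomeres. Over the 24 blastomeres, rho of this sum was 0.16 with Gata6, -0.30 with Fgf4 and 0.12 with Dab2. Cdx2, the factor that defines the trophectoderm, was listed in the 8-cell table alone, where it was above 1 in 4 of 26 blastomeres with a median of 0. With Cdx2 added to the 8-cell sum, rho was 0.57 with Gata4, -0.18 with Gata6, -0.28 with Fgf4 and -0.02 with Dab2. Among the 5 markers, the keratin genes Krt8 and Krt18 had medians of 0 at the 4-cell stage and of 43.3 and 29.8 FPKM at the 8-cell stage, with differences in mean log2 level of 2.87 and 3.50, and each was above 1 in 21 of 26 8-cell blastomeres. Tfap2c, a transcription factor, had medians of 54.1 and 59.4 FPKM. Gata3 and Eomes, the others of the 5, were off at both stages, with differences in mean log2 level of 0.21 and -0.08. Of the trophectoderm markers, 1 of 5 listed was on at the 4-cell stage and 3 of 6 at the 8-cell stage. Of all listed genes, 45.2% and 41.2% were. What part cells with these genes have in the Gata4 values was not tested.

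Fgf4, the ligand by which epiblast precursors signal to primitive endoderm precursors, was more widespread at the 4-cell stage. Its FPKM there was 0 at the lowest, 8.53 at the median and 86.0 at the highest, the widest range of the 8 genes. It was above 1 in 20 of 24 blastomeres (83.3%, interval 62.6% to 95.3%), above 10 in 11 and above 20 in 8. At the 8-cell stage the lowest and the median were 0 and the highest was 27.3, with 8 of 26 blastomeres above 1 (30.8%, interval 14.3% to 51.8%) and 15 at 0. Most 8-cell blastomeres thus had no fragment of Fgf4, although several had values within the middle of the 4-cell range. Of the 4-cell blastomeres, 5 lay above all 8-cell values. Mean log2(FPKM + 1) was 3.23 among 4-cell and 1.08 among 8-cell blastomeres, a difference of -2.16, and only 0.5% of the genes listed in both tables had a more negative difference. The median number of fragments on the gene in 4-cell blastomeres was about 381, and the lowest value above 1 at the 4-cell stage rested on about 39.0 fragments.

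Fgf3, another FGF ligand, is the neighbour of Fgf4 on chromosome 7, ending 18.04 kb before it. It had the same direction of difference. In 4-cell blastomeres it was 0 at the lowest, 13.02 at the median and 64.2 at the highest, and it exceeded 1 in 15 of 24. In 8-cell blastomeres its median was 0 and its highest value 18.6, and it was above 1 in 3 of 26, with a difference in mean log2 level, 8-cell minus 4-cell, of -2.32. Of the 4-cell blastomeres, 12 had both genes above 1, 8 had Fgf4 alone, 3 Fgf3 alone and 1 neither, and rho over the 24 blastomeres was -0.09. The 3 8-cell blastomeres with Fgf3 were among the 8 with Fgf4, and rho over the 26 was 0.18. Both genes are on the same strand, and the 250 bases before their starts (RefSeq, GRCm38.p6, plus strand, chr7:144861136-144861385 for Fgf4 and chr7:144838362-144838611 for Fgf3) are shown because the 2 neighbours had lower levels at the same stage. Capitals mark a GATA motif, which is AGATAA with T also allowed as its first letter and G as its last, or a GC box, GGGCGG, each searched on both strands.

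Fgf4: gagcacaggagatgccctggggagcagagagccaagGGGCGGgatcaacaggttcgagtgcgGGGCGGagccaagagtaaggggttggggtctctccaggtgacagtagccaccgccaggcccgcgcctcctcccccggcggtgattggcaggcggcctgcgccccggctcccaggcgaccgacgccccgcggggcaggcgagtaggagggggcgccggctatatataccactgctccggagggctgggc

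Fgf3: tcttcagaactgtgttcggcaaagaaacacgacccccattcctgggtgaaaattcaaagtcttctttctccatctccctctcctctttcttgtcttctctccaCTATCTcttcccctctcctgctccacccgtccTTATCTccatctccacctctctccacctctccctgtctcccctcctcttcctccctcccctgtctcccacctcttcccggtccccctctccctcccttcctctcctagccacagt

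The Fgf4 window had 71.2% G or C, 21 CG pairs and 2 GC boxes, and no GATA motif. The Fgf3 window had 55.2% G or C, 4 CG pairs and 2 GATA motifs, and no GC box. Over all 32851 windows of this length in the RefSeq table, the median was 52.4% G or C and 6 CG pairs, and 26.5% held a GATA motif and 32.7% a GC box. A match describes the letters of the window only.

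Of the FGF receptors, Fgfr2 was on at both stages and Fgfr1 at the 8-cell stage, and neither was on at a threshold of 5 FPKM, which Fgfr2 exceeded in 33.3% of 4-cell and 42.3% of 8-cell blastomeres and Fgfr1 in 19.2% of 8-cell blastomeres. Fgfr2, the receptor tyrosine kinase kept by primitive endoderm precursors, had an FPKM of 0 at the lowest, 1.52 at the median and 30.2 at the highest at the 4-cell stage, with 13 of 24 blastomeres above 1 (54.2%, interval 32.8% to 74.4%). Among 8-cell blastomeres it was 0 at the lowest, 4.33 at the median and 22.2 at the highest, with 16 of 26 above 1 (61.5%, interval 40.6% to 79.8%). The 2 ranges overlapped from end to end but for 1 4-cell blastomere, and the difference in mean log2 level was 0.23. This difference ran from 0.12 to 0.37 when each blastomere was left out in turn, and was 1.09 with medians in place of means. Fgfr1, the receptor used by both epiblast and primitive endoderm precursors, was above 1 in 4 of 24 4-cell blastomeres (16.7%, interval 4.74% to 37.4%), with a lowest and median FPKM of 0 and a highest of 8.41. In the 8-cell table it was above 1 in 15 of 26 (57.7%, interval 36.9% to 76.6%), with a lowest of 0, a median of 1.39 and a highest of 12.5. Low values were thus the rule at both stages, and the ranges overlapped apart from a single 8-cell blastomere. Fgfr1 had a mean log2 level higher by 0.90 at the 8-cell stage, just under the difference of 1 that was counted, and the value depended on the scale: it was 1.32 on TPM and 2.04 with a pseudocount of 0.1. Pdgfra, the PDGF receptor by which primitive endoderm is often marked, was off at both stages. It was above 1 in 3 of 24 4-cell blastomeres, with a highest FPKM of 5.11, and in 3 of 26 8-cell blastomeres, with a highest of 6.13. Its median was 0 in both tables, and the few blastomeres with Pdgfra had at least 192 fragments on it where it was above 1. Fgfr2 lies at chr7:130162451-130266808, Fgfr1 at chr8:25518759-25575718 and Pdgfra at chr5:75151322-75198206. The exons of Fgfr1 overlap those of Gm16159 and the exons of Pdgfra those of Mir7025, and unstranded reads of these overlaps cannot be told apart.

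Grb2, the adaptor that links activated receptors to SOS and RAS, had the highest median of the 8 genes at both stages. It lies at chr11:115644045-115708597. Its FPKM in 4-cell blastomeres was 0 at the lowest, 40.8 at the median and 73.3 at the highest, with 23 of 24 blastomeres above 1. In 8-cell blastomeres it was 0 at the lowest, 30.3 at the median and 60.3 at the highest, with 24 of 26 above 1. The ranges were alike, although 5 4-cell blastomeres lay above all 8-cell values, and the difference in mean log2 level was -0.33. This difference ran from -0.55 to -0.14 when each blastomere was left out in turn. The single 4-cell blastomere without Grb2 had 3699 genes above 1, one of the lowest numbers in the table.

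Dab2, a clathrin adaptor of the endocytic path that is needed in the visceral endoderm, had the largest difference between the stages of the 8 genes. Its FPKM in 4-cell blastomeres was 0 at the lowest and the median and 29.9 at the highest, with 9 of 24 blastomeres above 1 (37.5%, interval 18.8% to 59.4%) and 14 at 0. In 8-cell blastomeres it was 0 at the lowest, 21.3 at the median and 54.4 at the highest, with 24 of 26 above 1 (92.3%, interval 74.9% to 99.1%). The gene was thus present in a minority of blastomeres at the earlier stage and in nearly all at the later one, with 9 8-cell blastomeres above every 4-cell value. Mean log2(FPKM + 1) was 1.32 in the earlier and 3.99 in the later table, a difference of 2.66 that exceeded those of 99.9% of the genes listed in both tables. The 2 8-cell blastomeres with Dab2 at or below 1 had 3548 and 5106 genes above 1. RefSeq has 2 start windows for Dab2 on the plus strand of chromosome 15, far apart in the gene, and the 250 bases before each (chr15:6299539-6299788 and chr15:6386498-6386747) are shown because FPKM of the whole gene does not say which start was used. Capitals mark motifs as above.

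Dab2, first start: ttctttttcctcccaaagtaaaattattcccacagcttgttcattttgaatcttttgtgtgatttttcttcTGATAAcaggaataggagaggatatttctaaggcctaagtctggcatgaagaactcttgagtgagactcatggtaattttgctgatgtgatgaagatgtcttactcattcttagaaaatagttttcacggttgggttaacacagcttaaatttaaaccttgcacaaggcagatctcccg

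Dab2, second start: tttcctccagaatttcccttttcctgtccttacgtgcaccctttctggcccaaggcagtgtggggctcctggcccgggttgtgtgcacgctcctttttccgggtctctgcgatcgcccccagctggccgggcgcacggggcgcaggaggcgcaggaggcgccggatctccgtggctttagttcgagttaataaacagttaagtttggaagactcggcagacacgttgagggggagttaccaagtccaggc

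The window of the first start had 36.8% G or C, 2 CG pairs and 1 GATA motif, and that of the second had 60.0% G or C and 17 CG pairs, with neither motif. Windows were read for 5 of the 10 genes, namely Pdgfra, Fgf4, Fgfr2, Grb2 and Dab2, and a window of Gata6 is not reported here.

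Ordered by median FPKM at the 4-cell stage, Grb2 was followed by Gata4, Fgf4, Gata6 and Fgfr2, with Pdgfra, Fgfr1 and Dab2 at 0. The middle 50% of the blastomeres ran from 22.8 to 59.8 for Grb2 and from 4.73 to 18.1 for Gata4, which did not overlap. Gata4 could not be separated by this spread from Fgf4 (3.38 to 24.95) or from Gata6 (0.368 to 10.9), and the upper end of Fgf4 overlapped the lower end of Grb2. In the 8-cell table Grb2 was followed by Gata6, Dab2, Gata4, Fgfr2 and Fgfr1, with Fgf4 and Pdgfra at 0. There the middle 50% of Grb2 (25.7 to 40.4), Gata6 (12.8 to 42.0) and Dab2 (10.3 to 32.9) overlapped, and so did those of Gata4 (0.0946 to 17.1), Fgfr2 (0.0022 to 8.48) and Fgfr1 (0.0174 to 4.24). Gata4 also overlapped Gata6 and Dab2 in this range. From the earlier to the later table, Gata6 and Dab2 thus came to stand next to Grb2, and Fgf4 was no longer in the middle of the order.

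Of the 8 genes, 2 had a mean log2 level higher by 1 or more at the 8-cell stage, Gata6 and Dab2, where 4.56% of the 13604 genes listed in both tables did. One gene, Fgf4, had a level lower by 1 or more, where 6.76% of the genes did. The median difference was 0.10 over the 8 genes and -0.04 over all genes listed in both tables. The 5 other genes lay between -0.81 for Gata4 and 0.90 for Fgfr1. The stages overlapped in range for all 8 genes. Without the 3 blastomeres that had fewer than 4000 genes above 1, the differences were 2.19 for Gata6, 2.70 for Dab2 and -2.13 for Fgf4. They include the 8 neighbouring 4-cell columns in which Gata6 was at or below 1, and were not computed without these columns. In these single-cell libraries less RNA of a gene per cell and a lower capture of it cannot be told apart.

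**Figure D2:**
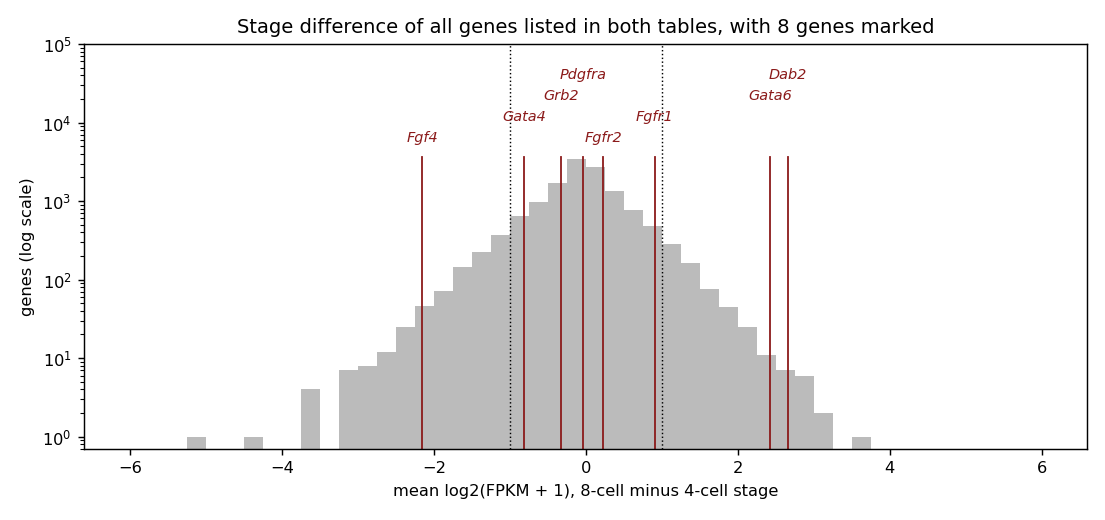
The grey bars count all 13604 genes listed in both tables (logarithmic vertical axis) by their difference in mean log2(FPKM + 1), 8-cell minus 4-cell stage, red lines mark the 8 genes, and dotted lines mark differences of -1 and 1. Dab2 at 2.66 and Gata6 at 2.42 stand in the right tail and Fgf4 at -2.16 in the left tail, while the other 5 genes lie between the dotted lines.

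The 8 genes did not form a set that was on or off together. Over the 28 pairs, Spearman's rho lay between -0.57 and 0.62 across the 24 4-cell blastomeres (median -0.0046) and between -0.34 and 0.31 across the 26 8-cell blastomeres (median 0.05). These are descriptions, because the points share embryos and each has its own depth. In 4-cell blastomeres, Gata6 was high where Fgf4 was low (rho -0.57) and where Gata4 was low (rho -0.55), and it was high where Dab2 was (rho 0.53). These values rest in part on the 8 neighbouring columns in which Gata6 was at or below 1. Over the 16 other 4-cell blastomeres rho was -0.48 for Gata6 with Fgf4, -0.20 with Gata4 and 0.37 with Dab2, where the columns were left out after their Gata6 values were seen. The 4-cell blastomere with the highest Gata6, 18.4 FPKM, also had the highest Dab2, 29.9, and had an Fgf4 of 0.113. The one with the highest Fgf4, 86.0 FPKM, had a Gata6 of 0.547 and a Dab2 of 0. The genes were still found together in many cells: 12 of 24 blastomeres had both Gata6 and Fgf4 above 1, and 13 had both Gata6 and Gata4. Across 8-cell blastomeres, rho was -0.02 for Gata6 with Fgf4, -0.18 for Gata6 with Gata4 and -0.32 for Gata6 with Dab2, and the 8-cell blastomere with the highest Gata6, 77.8 FPKM, had an Fgf4 of 0, a Gata4 of 0.761 and a Dab2 of 5.16. The difference between the stages in these correlations was not tested.

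The measures of each library, the number of genes detected and the estimated number of fragments, are set beside these genes. Over the 4-cell blastomeres, the number of genes above 1 had a rho of 0.45 with Gata6, 0.42 with Dab2, -0.37 with Fgf4 and -0.19 with Gata4. The estimated number of fragments had a rho of 0.21 with Gata6, -0.10 with Dab2, -0.08 with Fgf4 and -0.29 with Gata4. Without the 2 4-cell blastomeres below 4000 genes, rho was -0.73 for Gata6 with Fgf4, -0.65 for Gata6 with Gata4 and 0.49 for Gata6 with Dab2. Over the 8-cell blastomeres the number of genes had a rho of 0.47 with Fgf4, 0.43 with Dab2 and -0.28 with Gata6, and the number of fragments had 0.05, 0.13 and -0.17. Over all 8 genes rho with the number of fragments was farthest from 0 for Fgfr1 at the 4-cell stage (0.31) and for Pdgfra at the 8-cell stage (-0.43), where rho with the number of genes was -0.0019 and 0.07. The part of library quality in the co-occurrence was not tested beyond this.

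**Figure D3:**
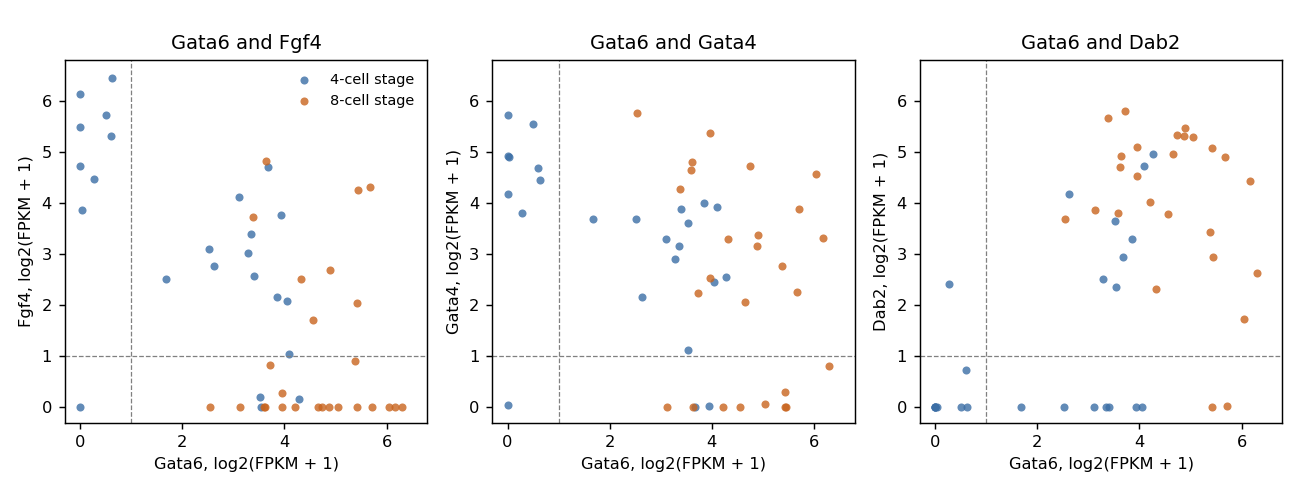
Each point is 1 blastomere (blue, 24 at the 4-cell stage, and orange, 26 at the 8-cell stage), with log2(FPKM + 1) of Gata6 on the horizontal axis and of Fgf4, Gata4 or Dab2 on the vertical axis, and dashed lines at an FPKM of 1. Blue points run from high Fgf4 without Gata6 to high Gata6 with little Fgf4 (rho -0.57 over 24 and -0.48 over the 16 outside the 8 neighbouring columns), and all orange points lie to the right of the Gata6 line.

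Ligand and receptor were found in the same cell as well as apart. Of the 4-cell blastomeres, 15 of 24 had Fgfr1 or Fgfr2 above 1, and of the 20 with Fgf4 13 had a receptor of the pair and 7 had neither. Of the 8-cell blastomeres, 21 of 26 had one of these receptors, and of the 8 with Fgf4 6 had a receptor and 2 had neither. The most common state at the 8-cell stage was a receptor without the ligand, in 15 of 26 blastomeres, which held for 2 of 24 at the 4-cell stage. Gata6, Gata4 and Dab2 were above 1 together in 7 of 24 4-cell blastomeres and in 16 of 26 8-cell blastomeres. A single 4-cell blastomere had neither Gata6 nor Gata4, and no 8-cell blastomere lacked both.

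**Figure D4:**
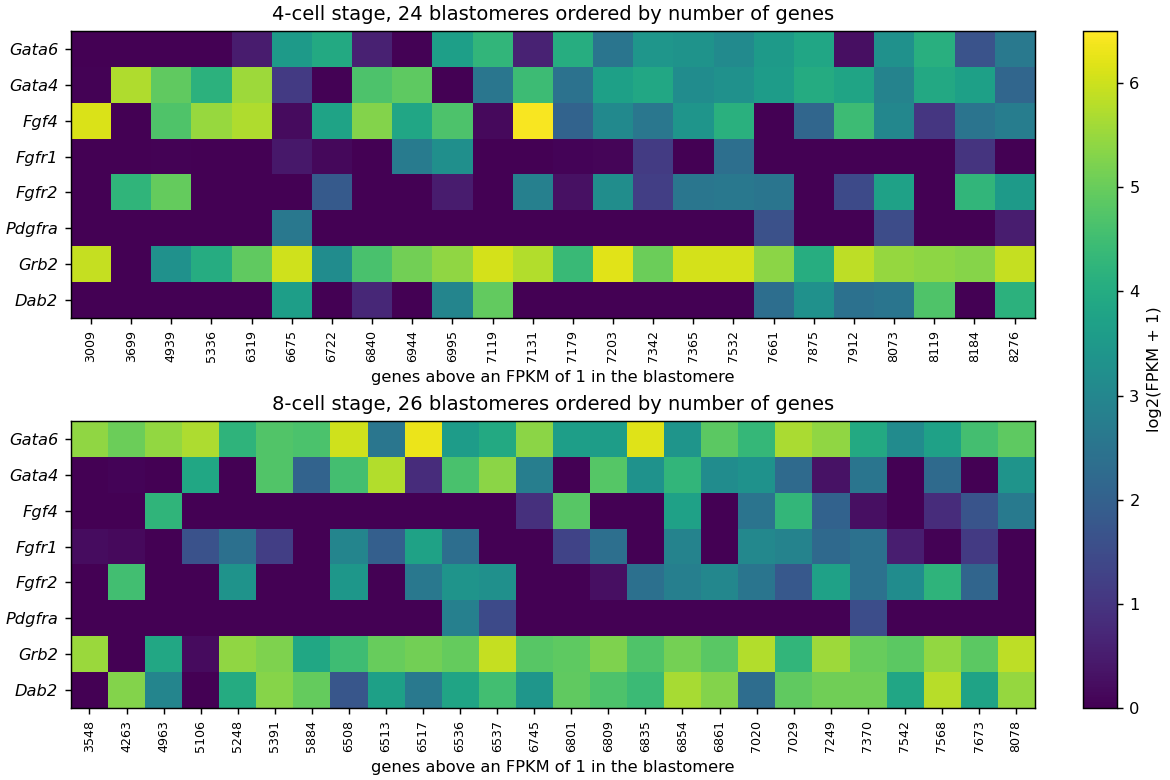
Colour gives log2(FPKM + 1) of the 8 genes (rows) in each blastomere (columns), with the 24 4-cell blastomeres above and the 26 8-cell blastomeres below, ordered from left to right by the number of genes above an FPKM of 1, which is printed under each column. Fgf4 is bright in many 4-cell and few 8-cell columns, Gata6 and Dab2 are bright in nearly all 8-cell columns, and Grb2 is bright in all but 1 4-cell and 2 8-cell columns.

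Nanog, which opposes Gata6 in the blastocyst, was found in many of the blastomeres with Gata6. In the 4-cell table Nanog was above 1 in 18 of 24 blastomeres with a median FPKM of 21.2, and 14 of the 15 blastomeres with Gata6 also had Nanog. Over the 24 blastomeres rho was 0.53 for Nanog with Gata6 and -0.56 for Nanog with Fgf4, and over the 16 outside the 8 neighbouring columns it was 0.09 and -0.48. In the 8-cell table Nanog was above 1 in 21 of 26, all of which had Gata6, and rho was 0.02 with Gata6 and 0.12 with Fgf4. The blastomere with the highest Gata6 at the 4-cell stage had a Nanog of 77.8 FPKM.

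Genes between the receptor and ERK are read beside the 45.2% and 41.2% of all listed genes that were on at the 4-cell and the 8-cell stage. Of 10 genes of the receptor adaptors, 9 of 9 listed were on at the 4-cell stage and 6 of 10 at the 8-cell stage, among them Sos1, the RAS exchange factor, with medians of 9.87 and 9.33 FPKM. Ptpn11, the phosphatase SHP2, had medians of 11.4 and 7.01, and Shc1, another adaptor, had 2.10 and 10.2. Of 11 genes from RAS to ERK, 9 were on at each stage. Map2k1 and Map2k2, which encode the MEK kinases, had medians of 78.1 and 61.2 FPKM at the 4-cell stage and of 60.6 and 87.7 at the 8-cell stage. Mapk3, which encodes ERK1, was above 1 in 3 of 24 and 2 of 26 blastomeres. The medians of both MEK genes were thus above that of Grb2 at each stage, while those of the receptors were far below it.

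Beyond Fgf4 and Fgf3, no gene of the 22 FGF ligands was on at either stage, 12 being listed in the 4-cell and 9 in the 8-cell table. Fgf1 came nearest, above 1 in 10 of 24 4-cell blastomeres. Of the 5 FGF receptors only Fgfr1 and Fgfr2 were on at a stage, and Fgfr4 and Fgfr3 were above 1 in 11 and 7 of 24 4-cell blastomeres and in 10 and 8 of 26 8-cell blastomeres. Among 14 feedback regulators and targets of the path, 7 of 13 listed were on at the 4-cell stage and 4 of 11 at the 8-cell stage, which is near the 45.2% and 41.2% of all listed genes. Spry2, an inhibitor of receptor signalling, was above 1 in every blastomere, with medians of 60.0 and 53.1 FPKM. Myc, a transcription factor, had medians of 32.4 and 7.34 and a difference in mean log2 level of -2.24, and Cbl, a ubiquitin ligase of receptors, had 11.9 and 3.35 and a difference of -1.24. Spry4, another inhibitor of the Spry family, was the third of this list with a level lower by 1 or more, at -1.70, and no gene of it was higher by as much. Of all genes listed in both tables, 6.76% were lower and 4.56% higher by 1 or more. Spred1, an inhibitor of RAS to RAF signalling, had medians of 1.505 and 2.59. Dusp6, a phosphatase of ERK that is a common readout of FGF signalling, was off at both stages, above 1 in 6 of 24 and 4 of 26. Spry4, Etv5 and Il17rd of the same list were on at the 4-cell stage alone. They were above 1 in 16, 13 and 13 of 24 4-cell and in 5, 8 and 4 of 26 8-cell blastomeres. The median difference over this list was -0.55 for the 11 genes listed in both tables, beside -0.04 over all genes.

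Heparan sulfate is the co-receptor of FGF ligands. Of 10 genes of its synthesis and core proteins, 4 were on in the 4-cell and 5 in the 8-cell table, which is near the shares of all listed genes, 45.2% and 41.2%. The core protein genes Sdc1, Gpc4 and Sdc4 had medians of 4.14, 0.987 and 0 FPKM at the 4-cell stage and of 6.90, 7.37 and 13.5 at the 8-cell stage, and Ndst1, a sulfotransferase, had 0.711 and 3.45. Of the 10, 3 had a mean log2 level higher by 1 or more at the 8-cell stage, Sdc4 by 1.99, Gpc4 by 1.10 and Hs6st1, another sulfotransferase, by 1.02, where 4.56% of all genes listed in both tables were higher and 6.76% lower by as much. Ext1, which encodes a polymerase of the heparan sulfate chain, had a difference of -1.13, with medians of 5.33 and 0 FPKM and 16 of 24 and 8 of 26 blastomeres above 1. Pdgfa, the ligand of the receptor encoded by Pdgfra, was above 1 in 6 of 24 4-cell and 17 of 26 8-cell blastomeres, with medians of 0 and 4.85 FPKM and a difference in mean log2 level of 1.51. The ligand was thus on at the 8-cell stage while its receptor gene was above 1 in 3 of 26 blastomeres.

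**Figure D5:**
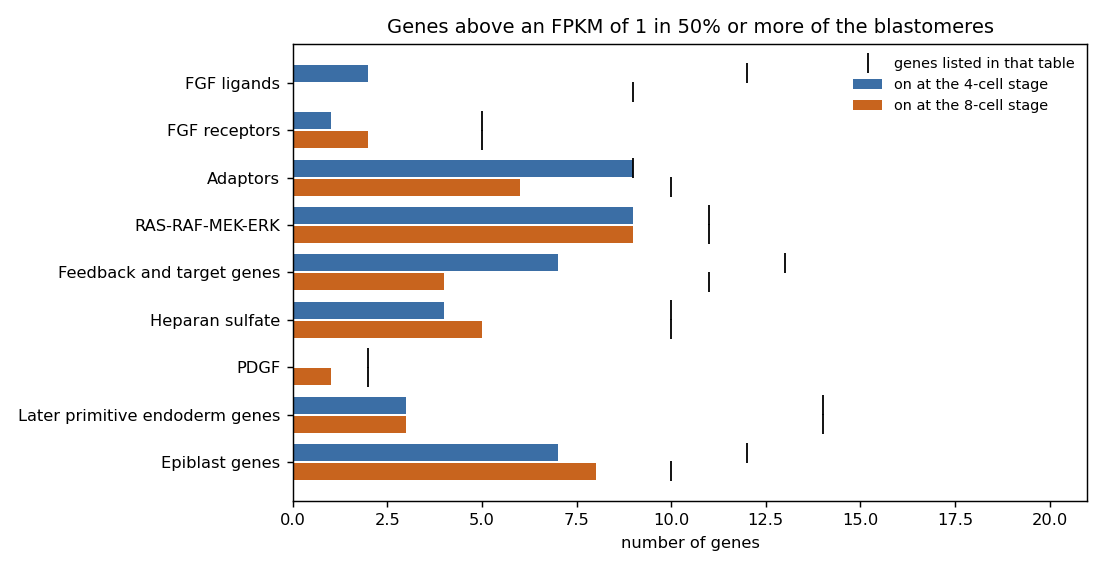
Bars give the number of genes of each list that were above an FPKM of 1 in 50% or more of the blastomeres, at the 4-cell stage in blue and the 8-cell stage in orange, and black ticks give the number of genes of the list in that table. Of the RAS to ERK genes, 9 of 11 were on at each stage, against 2 and 0 of the FGF ligands and 3 of 14 later primitive endoderm genes at each stage.

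Genes of the later primitive endoderm and its derivatives were mostly off. Of 20 such genes, 14 were listed at each stage and 3 of them were on at each, beside 45.2% and 41.2% of all listed genes. The 3 were Cited1, a transcriptional cofactor, with medians of 256 and 184 FPKM, Amn, which encodes the cubilin partner amnionless, with 5.21 and 3.73, and Nid1, which encodes the basement membrane protein nidogen, with 2.36 and 5.96. Col4a1 and Col4a2, the collagen IV genes of the basement membrane that this layer makes, were above 1 in no blastomere, with highest values of 0.838 and 0.360 FPKM over both stages. Lamb1, a laminin gene, was above 1 in 2 of 24 4-cell and 12 of 26 8-cell blastomeres. Of 14 epiblast genes, 7 of 12 listed were on at the 4-cell stage and 8 of 10 at the 8-cell stage, beside the same shares of all listed genes. Of the 10 epiblast genes listed in both tables, 5 had a mean log2 level higher by 1 or more at the 8-cell stage. The level of 1 was lower by as much, where 4.56% of all genes listed in both tables were higher and 6.76% lower. Tdgf1, a co-receptor of NODAL, had medians of 251 and 470 FPKM, Pou5f1, which encodes OCT4, had 41.5 and 110, and Klf2, a transcription factor, had 30.3 and 33.6. Prdm14 went the other way, with medians of 9.89 and 0 FPKM and a difference in mean log2 level of -2.54. It was above 1 in 17 of 24 and 2 of 26 blastomeres. Nanog and Klf4 had differences of -0.54 and -0.55.

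The genes whose pattern over blastomeres was most like that of a gene on at both stages were sought among the 5955 genes on at both stages, by the smaller of the 2 values of rho. For Gata6 they were Arpp19 (rho 0.57 over 4-cell and 0.56 over 8-cell blastomeres), Nupr1 (0.68 and 0.52) and Bloc1s2 (0.62 and 0.50). For Gata4 they were Ep300 (0.54 and 0.55), Dffb (0.72 and 0.53) and Smc1a (0.77 and 0.52). For Fgfr2 they were Gm15446 (0.56 and 0.54), Hus1 (0.51 and 0.43) and Sephs2 (0.45 and 0.43). For Grb2 they were Cep57l1 (0.66 and 0.53), Zfp518a (0.65 and 0.51) and Brip1 (0.53 and 0.49). None of these 4 genes was among the 3 most like another of them, and the other listed genes were not on at both stages and were not searched. These values are the highest over all 5955 genes, from 24 and 26 blastomeres that share embryos, and are given as a description.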

How the data were processed

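Embryos came from superovulated mice, and cDNA of single blastomeres was amplified by Smart-seq2 and made into Nextera XT libraries, which do not keep strand. The submitters' processing notes name STAR 2.5.1b, HTSeq and mm10. Per the methods of the study, uniquely aligned reads were counted on Refseq genes, and the authors deposited a gene table of FPKM values for each stage. Which gene lengths and totals entered the FPKM values is not given in the sources used here. All 24 and 26 columns of these tables were used, 5 of the 8-cell columns being named NA, and 0 further columns of these tables were left out. No column name matches a sample label, so the planned exact permutation test over embryos was not run, and neither was the count of repeat copies inside the genes, since the repeat tables give no coordinates.

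Of 15218 and 15342 Entrez numbers, 15200 and 15320 matched RefSeq of GRCm38.p6, the assembly of mm10. The total of fragments that each blastomere's FPKM values were divided by was estimated from the steps of low values of genes with 1 curated transcript. In simulated tables this returned 40 of 40 denominators within 1%. With it, 90.8% to 96.4% of low values came out as whole fragments within 0.1. These depend on exon lengths of a later annotation, and FPKM values were used as deposited. A gene was on if 50% or more of the blastomeres exceeded an FPKM of 1. Stage differences are of mean log2(FPKM + 1), and 1 or more was counted. Intervals are Clopper-Pearson intervals over blastomeres and leave out that blastomeres share embryos. Alternatives were thresholds of 0.1 and 5, shares of 25% and 75%, a pseudocount of 0.1, TPM (FPKM values of a blastomere scaled to one common sum), medians, unlisted genes set to 0, and blastomeres left out.

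The 10 genes and all lists were chosen with earlier results of these data known. From each pathway list, but not from the lists of cell type markers, genes on at a stage were named, at most the 4 with the highest median over all blastomeres, with for each of the 10 genes on at both stages the 3 genes most like it. Of the genes from RAS to ERK, 2 that this rule names are not reported here. Other genes (Fgf1, Fgfr3, Fgfr4, Mapk3, Dusp6, Col4a1, Col4a2, Lamb1, Cdx2, Krt8, Krt18, Tfap2c, Gata3, Eomes, Gata6os, Dppa3, Zar1, Spry4, Etv5, Il17rd, Ext1, Hs6st1, Prdm14 and Klf4) and single blastomeres were named after their values were seen. Python 3.11.15, pandas 2.3.3 and scipy 1.17.1 were used.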

Additional observations from a re-analysis of the deposited data

How the results depend on the processing

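The number of the 10 genes on was 5 (4-cell stage) and 6 (8-cell stage). It was 3 at each stage when 75% of the blastomeres had to be above 1, was 4 at each stage at a threshold of 5 (without Fgfr2 at both and Fgfr1 at the 8-cell stage), and stayed within 1.5 times at a threshold of 0.1, with 25% of the blastomeres, on TPM and without the columns named NA. Leaving out each blastomere in turn gave 5 to 5 and 6 to 6. The number higher by 1 or more at the 8-cell stage was 2, and became 3 with a pseudocount of 0.1 and on TPM (Fgfr1 in addition), 4 with medians in place of means (Fgfr1 at 1.26 and Fgfr2 at 1.09) and 2 to 3 when each blastomere was left out in turn. The number lower was 1, and became 2 with a pseudocount of 0.1 (Gata4 at -1.37) and 2 with medians (Gata4 at -1.04), and 1 to 1 when each blastomere was left out. Over these settings the differences ran from 1.83 to 3.38 for Gata6, 2.46 to 4.48 for Dab2 and -3.68 to -2.02 for Fgf4, and that of Pdgfra, -0.04, from -0.15 to 0.07. The cause of these shifts was not tested beyond what the settings change. Leaving out blastomeres with fewer than 4000 genes was chosen after seeing the data and changed no count of genes on. Leaving out the 8 neighbouring 4-cell columns, also chosen after seeing the data, moved rho of Gata6 with Gata4 from -0.55 to -0.20 and of Nanog with Gata6 from 0.53 to 0.09. The stage differences and the numbers of genes on were not computed without these 8 columns, so the ranges above do not cover that setting. Leaving out blastomeres with under 50% of their stage's median number of genes removed 1 4-cell and no 8-cell blastomere. No paired analysis was possible because no test was made and column names give neither embryo nor replicate. Depth limits the low genes: an FPKM of 1 for Fgf4 stood for 20.8 to 51.1 fragments in 4-cell and 7.08 to 65.9 in 8-cell blastomeres.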
